A study of Apostichopus japonicus with 9 samples.

Results

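The forms of miR-184 are described here in respiratory trees of *Apostichopus japonicus*, a sea cucumber, at 3 levels of dissolved oxygen (DO). Members were all entries named for the family miR-184, and 2 of the 475 miRNA entries in the joined libraries met this rule: Aja-miR-184-3p and Aja-miR-184. No entry named for the opposite (-5p) arm of the precursor was among them. The animals had spent 3 days in sea water at DO 2 mg/L (DO2 group, severe hypoxia), at DO 4 mg/L (DO4 group, mild hypoxia) or at DO 8 mg/L (DO8 group, the normoxic control). Oxygen was lowered by nitrogen aeration, and animals of every group had been acclimated to tanks beforehand. Each group had 3 small RNA libraries, and each library held mixed RNA from 3 animals, so that differences between single animals are not visible. The p-values therefore measure the spread between pools of 1 group.

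miR-184 is an old animal miRNA that is shared by insects, echinoderms and vertebrates, and its usual mature product is cut from the 3p arm of the hairpin. In *Drosophila* it is known for its role in the female germ line, and in vertebrates for its abundance in the epithelium of the cornea and the lens. A miRNA recognises its mRNA targets mainly through the seed, a short stretch near its 5′ end, while the 3′ end is the part that most often varies between reads of the same miRNA. The respiratory tree is the branched internal organ with which a sea cucumber takes up oxygen.

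The sequences of the forms are shown because their ratio is the main measurement below. They stand 5′ to 3′, with T for U as in the files. Capitals mark the seed (bases 2 to 8) and the last base.
Aja-miR-184-3p: tGGACGGAgaactgataagG
Aja-miR-184: tGGACGGAgaactgataagT
Both were 20 nt long, had the same seed and differed by a single substitution, G20T, with the base of Aja-miR-184-3p first and positions counted from 1 at the 5′ end. None of the other entries had this seed, and none matched either form over at least 16 bases with 2 or fewer mismatches. The alignment of the reads allowed mismatches and the rule for a read that fits both entries is not given in the sources used here, so reads may be shared between the forms and the level of the rarer form is uncertain to that extent. The place of miR-184 in the genome was not analysed here.

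The deposited values are reads scaled by 1 factor per library. The worth of 1 read was derived from the steps between the values, and it showed a large gap in depth, meaning miRNA reads. By this estimate the DO2 libraries held 335658, 628807 and 1740914 miRNA reads, against 4795819 to 6024869 in DO4 and 4681523 to 5720697 in DO8. The library statistics of the study list similar numbers of clean reads for all libraries, with a smaller share of miRNA among them in DO2. They also list more miRNA reads for every library than this estimate. The read numbers and their counting intervals here therefore depend on the derived worth of a read. Ratios between entries of a library do not, unless part of a read is added to them. By the same estimate 1 read was worth between 1.22 and 6.18 in the DO2 libraries, against 0.633 to 0.682 for DO4 and 0.556 to 0.598 for DO8. The DO2 libraries also stood apart in the sum of entries that resemble fragments of other RNAs (the families miR-6236, miR-6240, miR-2478 and others). Its members did not all go the same way. Of 13 tested, 8 were higher and 2 lower in DO2 than in DO8 at limma adjusted p under 0.05. Aja-miR-2478b-3p was among the lower ones, with a mean of 29.9 in DO2, 124 in DO4 and 151 in DO8. As a sum the fragment-like entries took 0.360% to 3.46% of the DO2 totals, against 0.00834% to 0.0191% in DO4 and 0.00815% to 0.0202% in DO8. All DO2 libraries share these features, so low oxygen cannot be told apart from them.

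Aja-miR-184-3p was among the most abundant miRNAs of the respiratory tree at every oxygen level. By its mean over the 9 libraries it was entry number 8, at 68562.6, between Aja-miR-200-3p at 77754.6 and Aja-miR-2011-3p at 61568.2. It ranked 6, 6 and 8 in the DO2 libraries, 11, 7 and 10 in DO4 and 6, 8 and 7 in DO8. These levels rested on 14412.5 to 159201 reads per library, so that counting error was small beside the spread between pools.

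The values of Aja-miR-184-3p in DO2 were 89135.6, 63437.7 and 63668.6, with a mean of 72080.6 ± 14770.5 (SD, n = 3). In DO4 they were 34716.8, 81593.6 and 47742.3, with a mean of 54684.3 ± 24197.1 (SD, n = 3). In DO8 they were 95179.1, 68192.2 and 73397.5, with a mean of 78922.9 ± 14316.8 (SD, n = 3). The groups overlapped in every comparison, and DO4 varied most, since its second library lay above all but 2 of the others.

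On the log2(value + 1) scale, Aja-miR-184-3p differed between DO2 and DO8 by -0.13 (SE 0.31, 95% interval -0.84 to 0.57, limma adjusted p = 0.743). Among the 90 entries tested, some listed in DO2 alone, 31.1% passed the threshold of adjusted p 0.05 in this comparison, and Aja-miR-184-3p did not. For DO2 against DO4 its difference was 0.47 (SE 0.31, 95% interval -0.23 to 1.17, limma adjusted p = 0.256), where 31.1% of entries passed. For DO4 against DO8 it was -0.61 (SE 0.31, 95% interval -1.31 to 0.10, limma adjusted p = 0.802), where 0% passed in limma and 1 entry had an unadjusted p under 0.05. Changes inside these intervals were not excluded with 3 pools per group. In whole tissue, fewer cells that hold a miRNA and less of it per cell cannot be told apart.

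**Figure D1:**
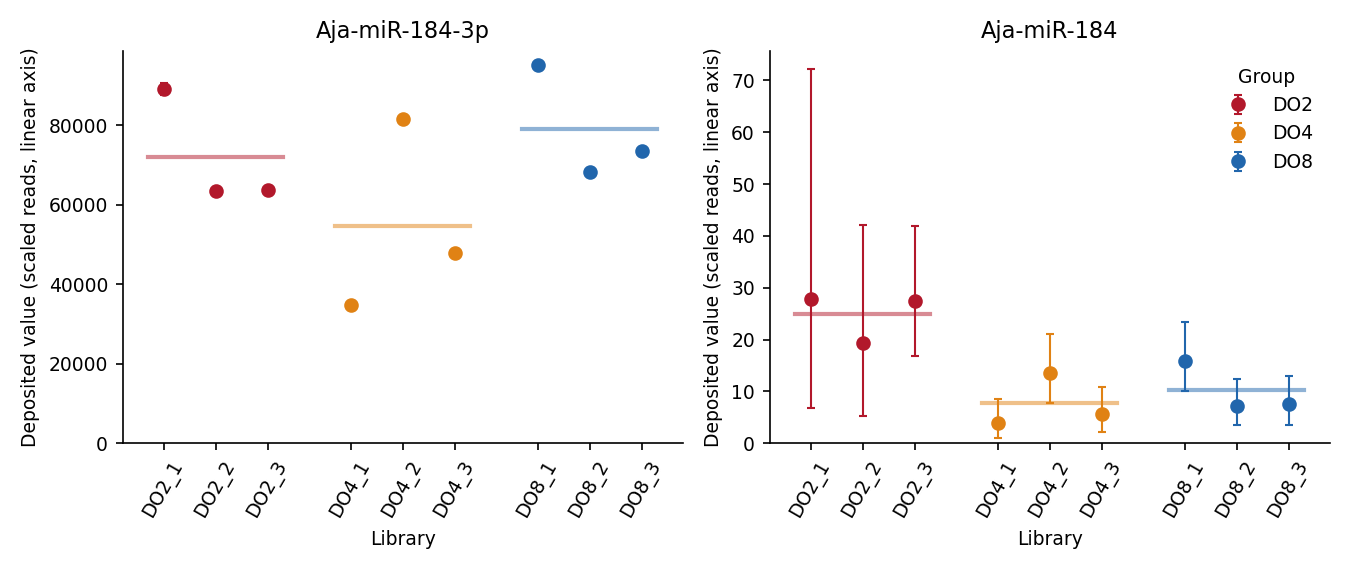
Deposited values (scaled reads, linear axes) of Aja-miR-184-3p on the left and Aja-miR-184 on the right in the 9 libraries. Points are libraries, bars are 95% Poisson intervals for counting error alone (smaller than most points on the left), and horizontal lines are group means of 3 libraries. Aja-miR-184-3p overlapped between all groups, while the 3 DO2 values of Aja-miR-184 lay above all others.

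As a share of the summed miRNA values, Aja-miR-184-3p took 4.29%, 3.13% and 3.00% of the DO2 libraries, with a mean of 3.47% ± 0.712 (SD, n = 3). It took 0.871%, 2.50% and 1.42% of the DO4 libraries (mean 1.59% ± 0.826, SD, n = 3) and 2.78%, 2.24% and 2.70% of the DO8 libraries (mean 2.58% ± 0.290, SD, n = 3). A share does not depend on the factor of the library, but it does depend on the rest of the total. Every DO2 share was above every DO4 and every DO8 share, whereas DO4 and DO8 overlapped. Shares above in every library were common, with 42.2% of the tested entries in DO2 against DO8 and 41.1% in DO2 against DO4. Both figures include entries listed in DO2 alone. For DO4 against DO8 the figure was 4.44%. The two-sided exact permutation test gave p = 0.1 for DO2 against DO8 and p = 0.1 for DO2 against DO4, which is the smallest p that 3 libraries against 3 allow. For DO4 against DO8 the exact p was 0.2. The separation was lost when a single entry, Aja-miR-10, was left out of the total. Aja-miR-10 took 39.4% to 50.3% of the DO2 libraries, 49.9% to 51.2% of those of DO4 and 43.7% to 57.0% of those of DO8. With Aja-miR-10 left out of the total, the shares of Aja-miR-184-3p were 7.40%, 6.29% and 4.96% in DO2, and these overlapped the 1.78%, 4.98% and 2.86% of DO4 as well as the 6.48%, 5.12% and 4.80% of DO8. The exact permutation p was then 0.6 for DO2 against DO8 and 0.2 for DO2 against DO4. Against DO4 the overlap was only that of 4.96% in the third DO2 library with 4.98% in the second DO4 library. The difference of means from DO4 was 3.01 percentage points, compared with 1.88 with Aja-miR-10 in the total. From DO8 it was 0.752, compared with 0.899.

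Aja-miR-184, the form that ends in T, was rare in every library. It rested on 4.5, 6 and 22.5 reads in the DO2 libraries, 6, 20 and 9 in DO4 and 26.5, 13 and 13 in DO8, or 120.5 reads in all. Fractions occur because many deposited values are not whole numbers of reads. In rank it came 71 of 84, 83 of 164 and 112 of 278 listed entries in DO2. It came 89 of 124, 68 of 103 and 100 of 157 in DO4, and 64 of 87, 71 of 100 and 67 of 101 in DO8. By its mean over the 9 libraries, 14.3, it was entry number 78, between the predicted miRNAs PC-5p-16315_136 and PC-5p-22918_88, each of which was above 0 in the mean of a single group.

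The values of Aja-miR-184 in DO2 were 27.8, 19.4 and 27.4, with a mean of 24.9 ± 4.76 (SD, n = 3). In DO4 they were 3.97, 13.6 and 5.70, with a mean of 7.77 ± 5.16 (SD, n = 3), and in DO8 they were 15.8, 7.23 and 7.55, with a mean of 10.2 ± 4.88 (SD, n = 3). All 3 DO2 values lay above all DO4 and all DO8 values, while DO4 and DO8 overlapped. Values above in every library were found for 30% of the tested entries in DO2 against DO8 and for 25.6% in DO2 against DO4. Both figures include entries listed in DO2 alone. For DO4 against DO8 the figure was 5.56%. The counting intervals of the shallow DO2 libraries were wide, since the value of 27.8 had a 95% Poisson interval of 6.74 to 72.2 and that of 19.4 had 5.24 to 42.1. The third and deepest DO2 library had the narrowest, 16.8 to 42.0. Intervals cover counting error only, because PCR copies are not independent molecules.

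On the log2(value + 1) scale, Aja-miR-184 was higher in DO2 than in DO8 by 1.27 (SE 0.60, 95% interval -0.08 to 2.62), which did not pass (limma adjusted p = 0.133). Against DO4 it was higher by 1.70 (SE 0.60, 95% interval 0.35 to 3.05), with an unadjusted p of 0.0188 in limma and an adjusted p of 0.0565, just outside the threshold. The difference of DO4 and DO8 was -0.43 (SE 0.60, 95% interval -1.78 to 0.92, limma adjusted p = 0.815). The added 1 understates changes of entries as low as this one. Without the second DO4 library, which held the highest DO4 value, the difference of DO2 and DO4 was 2.15 and passed (limma adjusted p = 0.0255). The same omission brought Aja-miR-184-3p to 0.81 (limma adjusted p = 0.0417). The calls of both forms against DO4 thus depended on this library, and also on the scaling, as given below.

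Per 1000000 of the summed miRNA values, Aja-miR-184 stood at 13.4, 9.54 and 12.9 in the DO2 libraries. The same share was 0.996, 4.17 and 1.69 for DO4 and 4.63, 2.38 and 2.78 for DO8. The DO2 shares did not overlap those of either other group, which by the shares of all tested entries given above was common. The two-sided exact permutation p was 0.1 for DO2 against DO8 and 0.1 for DO2 against DO4, the smallest possible, and 0.5 for DO4 against DO8.

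The direction of the level of each form in DO2 depended on the scaling. With values scaled to equal miRNA totals, the median change of all tested entries moved to 0.51 for DO2 against DO8 and to 0.62 for DO2 against DO4, compared with -0.03 and -0.14 as deposited. Aja-miR-184 was then higher by 1.80 in DO2 than in DO8 (limma adjusted p = 0.0417) and by 2.40 than in DO4 (limma adjusted p = 0.00998). Aja-miR-184-3p differed by 0.42 from DO8, below the median shift (limma adjusted p = 0.399), and was higher by 1.24 than in DO4 (limma adjusted p = 0.0185).

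With reads divided by the clean reads of each library, that is all reads left after trimming, the median change of all tested entries was -1.52 for DO2 against DO8 and -1.46 for DO2 against DO4. Aja-miR-184-3p had 1481.61, 1982.59 and 4753.53 reads per 1000000 clean reads in the DO2 libraries, 4567.38, 11897 and 6762.65 in those of DO4 and 14253.1, 10684.3 and 11984.9 in those of DO8. On that scale it fell by 2.34 in DO2 against DO8 (limma adjusted p = 0.00229) and by 1.57 against DO4 (limma adjusted p = 0.0246). Aja-miR-184 had 0.463, 0.605 and 2.04 reads per 1000000 clean reads in the DO2 libraries, 0.522, 1.99 and 0.807 in those of DO4 and 2.37, 1.13 and 1.23 in those of DO8. Its change was then -0.39 against DO8 (limma adjusted p = 0.399) and -0.07 against DO4 (limma adjusted p = 0.887). Levels this near the added 1 understate the change, so these values are not on a par with those of Aja-miR-184-3p. The library with the most of the T-ending form was thus a DO8 library on this scale and a DO2 library as deposited.

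**Figure D2:**
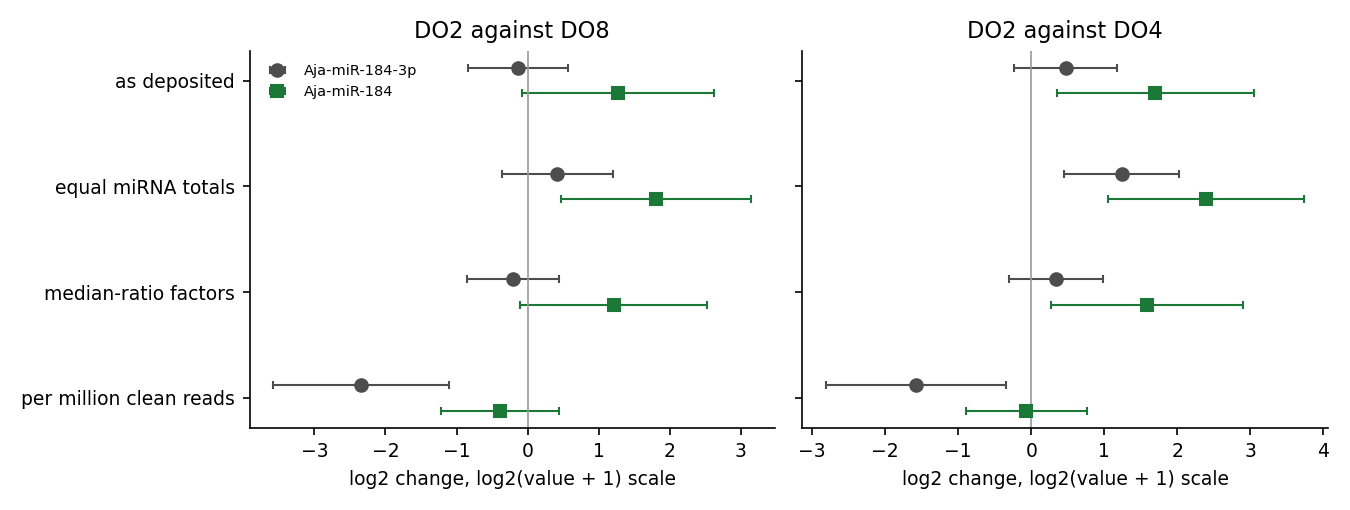
Change of Aja-miR-184-3p (circles) and Aja-miR-184 (squares) in DO2 against DO8 on the left and DO2 against DO4 on the right, as log2 differences of log2(value + 1), under 4 scalings. Bars are 95% intervals from limma with 3 libraries per group. The changes were lowest with clean reads as library size and highest with equal miRNA totals, while Aja-miR-184 lay to the right of Aja-miR-184-3p in every row. With clean reads as library size, the added 1 understates the change of Aja-miR-184.

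The ratio between the forms is taken within a library and is free of its factor. The forms differ at the last base alone, so a separate form cannot be told apart from reads of Aja-miR-184-3p with a misread or altered last base. This was not tested. Aja-miR-184 made up 31.2, 30.5 and 43.0 reads per 100000 reads of Aja-miR-184-3p in the DO2 libraries, with a mean of 34.9 ± 7.02 (SD, n = 3). The ratio was 11.4, 16.7 and 11.9 in DO4, with a mean of 13.4 ± 2.91 (SD, n = 3), and 16.6, 10.6 and 10.3 in DO8, with a mean of 12.5 ± 3.58 (SD, n = 3). Put the other way, a read of Aja-miR-184 stood beside 2935 reads of Aja-miR-184-3p in the mean DO2 library, 7704 in the mean DO4 library and 8388 in the mean DO8 library. The lowest DO2 ratio was above the highest of the other 6 libraries.

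On the log2 scale, with 0.5 read added to each form, the ratio was higher in DO2 than in DO8 by 1.55, or 2.94-fold, and higher in DO2 than in DO4 by 1.41, or 2.66-fold. The two-sided exact permutation p was 0.1 for both comparisons, the smallest possible for 3 libraries against 3. DO4 and DO8 differed by 0.14, or 1.10-fold (exact p = 0.5). Summed over the group, DO2 had 33 reads of Aja-miR-184 and 86381 of Aja-miR-184-3p, DO4 had 35 and 247578, and DO8 had 52.5 and 408241. From these sums the ratio was 2.97-fold higher in DO2 than in DO8 and 2.70-fold higher than in DO4.

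Counting error set the precision of this ratio. The ratios of the first and second DO2 libraries had 95% intervals of 7.56 to 81.0 and of 8.26 to 66.5, which overlapped the intervals of all 6 other libraries. The third DO2 library had an interval of 26.4 to 66.0, which overlapped none of theirs, since the highest upper bound among them was 25.8 in DO4 and 24.7 in DO8. That library was the deepest of the DO2 group and had the highest ratio in it. Leaving out each library in turn kept the difference of DO2 and DO8 between 1.43 and 1.77 and that of DO2 and DO4 between 1.29 and 1.56.

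**Figure D3:**
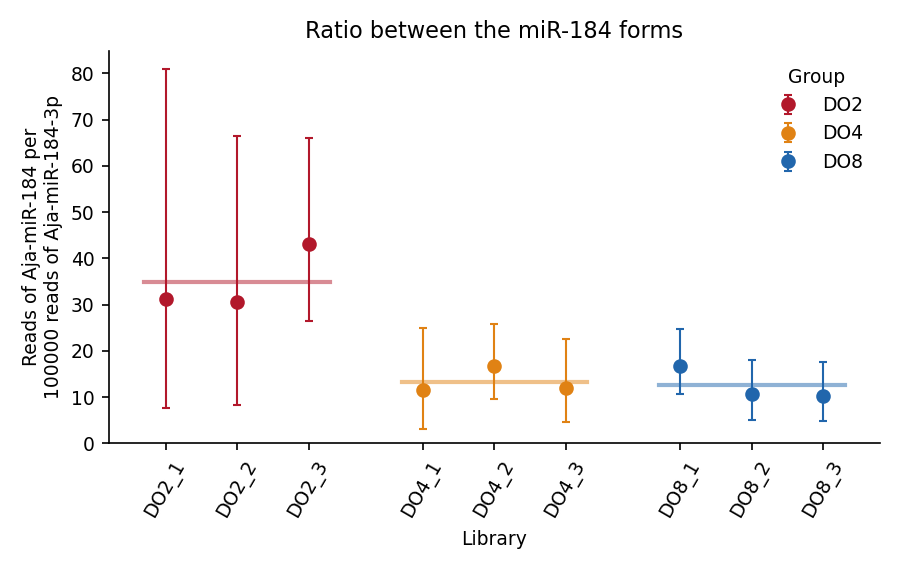
Reads of Aja-miR-184 per 100000 reads of Aja-miR-184-3p (linear axis) in each of the 9 libraries. Points are libraries, bars are 95% intervals for counting error alone and horizontal lines are group means of 3 libraries. The DO2 ratios lay between 30.5 and 43.0, all above the DO4 and DO8 ratios, which lay between 10.3 and 16.7.

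Other families with near-identical forms give the background for this ratio. Pairs of entries of 1 family that align without gaps over at least 16 bases with 2 or fewer mismatches, each rarer form with its most abundant partner, gave 16 pairs besides miR-184, in 11 families, with both forms listed in every library. The ratio of the rarer to the commoner form was higher in every DO2 than in every DO8 library in 7 of them (43.8%), and lower in 0. Against DO4 it was higher in 6 (37.5%), and lower in 0. For DO4 against DO8 the counts were 0 and 0. The difference of DO2 and DO8 had a median of 0.32 on the log2 scale over the 16 pairs and ran from -0.46 to 2.46. The miR-184 pair, at 1.55, was number 6 of the 17. A ratio that was higher in every DO2 library was therefore common over all 16 pairs and was not particular to miR-184. Of the 7 pairs higher against DO8, however, 6 had no mismatch, unlike miR-184.

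The pairs were also counted by kind of sequence difference. In 8 of them the rarer form was a shorter copy of the commoner one with no mismatch, and 6 of these 8 were higher in every DO2 than in every DO8 library (median 1.51). In the other 8 the forms differed by 1 or 2 mismatches, as in miR-184, and 1 of these 8 was higher (median -0.02). Of the mismatch pairs, 5 had forms of equal length, as in miR-184, and 0 of these 5 were higher in every DO2 than in every DO8 library. Against DO4, the ratio was higher in every DO2 library in 4 of the 8 pairs with no mismatch and in 2 of the 8 with a mismatch, of which 1, Aja-miR-92a-1 with Aja-miR-92a, had forms of equal length. The pairs share libraries, and 6 of them share Aja-miR-92a as the commoner form, so they are not independent and no test was made of this split.

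Aja-miR-92d-3p was the only other rarer form among the 16 that differed from its partner at its own last base alone. Unlike Aja-miR-184, it is shorter than that partner (20 against 22 nt), and it is also an exact shorter copy of the less abundant Aja-miR-92-3p. Per 100000 reads of Aja-miR-92a it had 92.7, 56.5 and 69.2 in the DO2 libraries, 53.2, 104 and 75.7 in those of DO4 and 87.3, 94.7 and 89.1 in those of DO8. Its ratios overlapped between the groups, with a log2 difference of -0.33 between DO2 and DO8, against 1.55 for miR-184. Aja-miR-193 and Aja-miR-92a-1 differed from equally long partners, Aja-miR-193-3p and Aja-miR-92a, at positions 21 and 22, their last bases. Their log2 differences between DO2 and DO8 were 0.59 and 0.12, and both overlapped between these groups. Aja-miR-92d-3p and Aja-miR-193 were chosen for naming after their values had been seen.

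Of the 4 pairs with the most abundant rarer form, Aja-miR-92-3p differed from Aja-miR-92a by -0.04 and Aja-miR-92a-1 by 0.12 between DO2 and DO8 on the log2 scale. The 19 nt entry of Aja-miR-71 differed from Aja-miR-71-5p by 0.40, and Aja-miR-6240 from Aja-miR-6240-5p by 0.89. The pairs above miR-184, named after their values were seen, were the short forms of miR-1 (2.46), miR-125 (2.32), miR-200 (2.31) and miR-133 (2.12) and Aja-miR-92d (2.44). miR-1 and miR-133 are the classic muscle miRNAs, and miR-200 is known from vertebrate epithelia.

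Within DO2, the order of the libraries in miR-184 rested on 4.5, 6 and 22.5 reads of Aja-miR-184 and could not be resolved. Of the 7 other pairs with a higher ratio in DO2, 6 had their lowest DO2 ratio in the third library, which was the deepest. In miR-184 that library had the highest ratio, though within the counting intervals of the other DO2 libraries. The part of depth and of the fragment-like entries in the ratio of miR-184 was not tested.

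**Figure D4:**
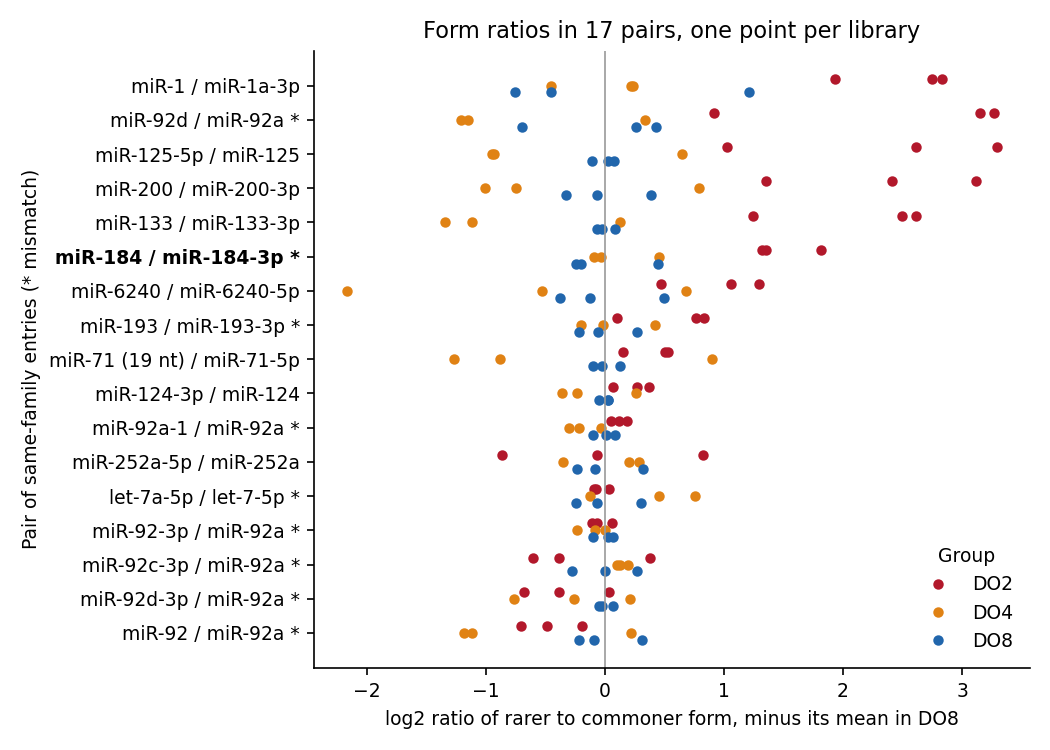
The log2 ratio of the rarer to the commoner form in 17 pairs of same-family entries, minus its mean in DO8, with 1 point per library and pairs ordered by the mean of DO2. Stars mark pairs with a mismatch and bold marks miR-184. The DO2 points of miR-184 lay to the right of all its DO4 and DO8 points, as in 5 other pairs, and most pairs with a mismatch lay near 0.

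The entries whose profile over the 9 libraries was nearest to that of each form were ranked by Pearson's r of log2(value + 1), as a description without a test. The libraries share depth and scaling, which moves all entries together. For Aja-miR-184-3p they were Aja-miR-2006-3p (r = 0.84), Aja-miR-200 (r = 0.82) and Aja-miR-193 (r = 0.71). Aja-miR-2006-3p averaged 805 in the DO2 group, 483 in the DO4 group and 897 in the DO8 group, the same order of groups as Aja-miR-184-3p. For Aja-miR-184 the nearest were Aja-miR-2002-3p (r = 0.87), Aja-miR-6240-3p (r = 0.86) and Aja-miR-235a (r = 0.85). Aja-miR-2002-3p averaged 1601 in the DO2 group, 274 in the DO4 group and 290 in the DO8 group. Aja-miR-6240-3p, a fragment-like entry, averaged 1707 in the DO2 group, 3.90 in the DO4 group and 4.18 in the DO8 group. The forms of miR-184 correlated with each other at r = 0.67, and at r = 0.87 with equal miRNA totals.

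Lists of marker miRNAs are given beside these values. They were made by family name and were not tested as markers of cells in this tissue. Among the epithelial, ciliary and sensory miRNAs, 5 of 11 entries were tested, and 0 were higher and 1 lower in DO2 against DO8, with a median change of -0.93 beside -0.03 over all 90 entries. The lower one was Aja-miR-200-3p, the neighbour of Aja-miR-184-3p in rank, at 35729.1 ± 3207.4 in DO2 against 102503 ± 21706 in DO8 (SD, n = 3 each), a change of -1.50 (limma adjusted p = 0.0038). The summed level of this list was between 2.08% and 2.31% of the DO2 totals, 1.51% and 4.09% of the DO4 totals and 2.66% and 4.94% of the DO8 totals. The other tested members did not pass: Aja-miR-200, the short form, at 0.78, Aja-miR-31a-5p at -0.32, Aja-miR-34 at -0.93 and Aja-miR-96-5p at -1.32. Aja-miR-184-3p did not pass where Aja-miR-200-3p did, and the difference between Aja-miR-184-3p and Aja-miR-200-3p was not tested.

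Nervous system miRNAs had 3 higher and 0 lower of 8 tested, with a median of 0.76, and made up between 0.105% and 0.178% of the DO2 totals, 0.0487% and 0.0725% of the DO4 totals and 0.0627% and 0.0698% of the DO8 totals. Aja-miR-137 was among the higher ones, at 1.41 in DO2 against DO8 (limma adjusted p = 0.0159). Of those that did not pass, Aja-miR-7-5p (0.96), Aja-miR-9-3p (0.57) and Aja-miR-124-3p (0.06) had positive changes. Those of Aja-miR-9-5p (-0.75) and Aja-miR-124 (-0.17) were negative. Muscle miRNAs had 2 higher and 0 lower of 5, with a median of 0.85. The higher ones were Aja-miR-1 at 3.15 (limma adjusted p = 0.00247) and Aja-miR-1a-3p at 0.85 (limma adjusted p = 0.0221). Aja-miR-1 is an exact shorter copy of Aja-miR-1a-3p. The rest did not pass: Aja-miR-133 at 1.62, Aja-miR-133-3p at -0.47 and Aja-miR-133a-5p at -3.79 (limma adjusted p = 0.0623, 0.266 and 0.0972). Muscle miRNAs took 3.81% to 6.22% of the DO2 totals, 2.24% to 2.63% of the DO4 totals and 1.80% to 2.57% of the DO8 totals. Their DO2 totals lay above those of the other groups, as did the share of Aja-miR-184-3p, and the part of cell makeup in the levels of miR-184 was not tested.

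Fragment-like entries had 8 higher and 2 lower of 13 in DO2 against DO8, with a median of 5.89. Some of the higher ones were tested through DO2 alone, as given above. The 2 lower ones were Aja-miR-2478b-3p at -2.79 (limma adjusted p = 0.0396) and Aja-miR-7977 at -2.84 (limma adjusted p = 0.0221). The digestive tract list had 1 tested member, Aja-miR-375-3p, which did not pass against DO8 (0.47, limma adjusted p = 0.338) but was higher than in DO4 by 1.06 (limma adjusted p = 0.0401). The list of vertebrate blood and liver miRNAs also had 1 tested member, Aja-miR-122-5p, which passed in neither comparison. Against DO4, the counts of higher and lower entries in DO2 were 0 and 1 for epithelial, 3 and 0 for nervous system, 2 and 0 for muscle and 8 and 0 for fragment-like entries. None of the lists held an entry that passed in DO4 against DO8.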

How the data were processed

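Small RNA of 9 libraries was analysed. The deposited values are a signal: the authors trimmed and filtered reads, removed other RNA classes, aligned the rest to animal miRNAs of miRBase and scaled the reads by 1 factor per library. The submitters' processing notes name CASAVA 1.5. The study's methods give reads per 1000000 clean reads, but the totals (2029412 to 3984844) exceed that unit, and where the factors came from is not given in the sources used here. The protocol in the labels describes an mRNA library, the study's methods a small RNA library.

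The worth of 1 read was the largest step at which at least 60% of a library's values were whole (within 0.02 of a read). At that step 65.5% to 81.1% were whole, so tests for counts were not used. Of 244 predicted miRNAs listed in a single library, 185 had as many reads as their name states.

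The 90 of 475 entries that some group listed in each of its 3 libraries were fitted as log2(value + 1) with limma 3.58.1 (R 4.3.3, trend, 1 mean per group), with Benjamini-Hochberg adjustment over all 90 and two-sided tests. Entries at 0 in both other groups, such as Aja-miR-4171-5p, entered through DO2 alone, so their direction there was fixed. The fit was tested on simulated data. Shares and form ratios were compared by exact permutation tests (scipy 1.17.1). Named entries were both forms, the 3 nearest by correlation, neighbours in rank, list members and pairs of the same family. Members, lists and tests were chosen with earlier results of these data known. Alternatives were other filters, added constants, scalings (clean reads from the study's library statistics), spread estimates, a replicate block, other totals and left-out libraries.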

Additional observations from a re-analysis of the deposited data

How the results depend on the processing

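Scaling moved the levels most. With equal miRNA totals, DO2 against DO8 was 1.80 for Aja-miR-184 and 0.42 for Aja-miR-184-3p, and DO2 against DO4 was 2.40 and 1.24 (limma adjusted p = 0.0417, 0.399, 0.00998 and 0.0185). With clean reads as library size these were -0.39, -2.34, -0.067 and -1.57 (limma adjusted p = 0.399, 0.00229, 0.887 and 0.0246), where the added 1 understates the changes of Aja-miR-184. Aja-miR-184 in DO2 against DO4 also passed with 10 added before the logarithm (1.00, limma adjusted p = 0.0345) and with a spread per miRNA (1.70, limma adjusted p = 0.0467). Over all its alternatives the adjusted p for this difference ran from 0.00998 to 0.887. Leaving out each library in turn gave 1.37 to 2.15 for this difference and 1.09 to 1.61 for Aja-miR-184 in DO2 against DO8. For Aja-miR-184-3p it gave -0.30 to 0.01 in DO2 against DO8, with the sign turned without the first DO8 library (0.0080), and 0.19 to 0.81 in DO2 against DO4. The ratio between the forms in DO4 against DO8 ran from -0.011, without the second DO4 library, to 0.36, and shares kept their direction. Without Aja-miR-10 in the total, however, the DO2 shares of Aja-miR-184-3p overlapped those of both other groups (differences of 0.752 against DO8, exact permutation p = 0.6, and 3.01 against DO4, p = 0.2).

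Calls among all 90 entries numbered 28 for DO2 against DO8 (21 higher, 7 lower) and 28 for DO2 against DO4 (22 higher, 6 lower). With equal totals the splits were 30 and 4, and 36 and 1. With clean reads there were 65 calls (13 higher, 52 lower) and 63 (13 higher, 50 lower), and without the first DO8 library there were 18 for DO2 against DO8. For DO4 against DO8 there were 0, but 1 with 0.1 added, 2 in a fit of these groups alone and 2 without the first DO2 library. Pairs of forms with a higher ratio in every DO2 than DO8 library were 8 of 17 and, with every matching pair, 10 of 27, both with miR-184, and 6 of 8 among pairs with no mismatch, which leave miR-184 out (settings chosen after seeing the data).

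Replicate numbers did not pair the libraries: deviations of same-numbered libraries correlated at -0.37 to 0.23, over 0.1 in 2 of 9 pairs. The replicate block changed no call of either form (Aja-miR-184, limma adjusted p = 0.105 for DO2 against DO4 and 0.200 against DO8) and gave 26, 27 and 0 calls. The depth of the DO2 libraries limits Aja-miR-184 to 4.5 to 22.5 reads each.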
